A study of Mus musculus with 4 samples.

Results

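The genes described here separate 2 postnatal from 2 fetal RNA-seq libraries of mouse lung fibroblasts sorted for Pdgfra, which encodes a PDGF receptor. All libraries came from whole lungs of wild-type (WT) C57BL6 mice, with 1 library per age. The fetal pair is E16.5 and E18.5, after the days of embryonic life, and the postnatal pair is P7 and P28, after the days since birth. No treatment or transgene is given in the labels, and how many animals entered a library is not stated there. The deposited unit is FPKM, a fragment count divided by transcript length and library size. Each library was divided by a median-ratio factor, and all levels below are the scaled FPKM that result. A gene was counted when the lower library of one pair of ages stood at least 2-fold above the higher library of the other pair, on log2(scaled FPKM + 1), and both libraries of the higher pair reached 5 scaled FPKM. Of 23444 gene symbols in the table, 12497 reached 1 scaled FPKM in at least 1 library, and 382 of those met the rule (3.06%). The postnatal pair was higher for 235 genes (1.88%) and the fetal pair for 147 (1.18%). These values chose the genes, so all that follows describes 4 libraries and nothing was tested. The ages of a pair are not replicates, and no spread between animals can be given.

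Lung mesenchyme changes its work around birth. Fetal fibroblasts divide and lay down the tissue into which the airways grow, under growth factors such as insulin-like growth factor 2, whose gene is imprinted and is shut down in most tissues of the mouse after birth. Postnatal fibroblasts build the elastic and collagen scaffold of the alveoli and then persist as quiescent cells along alveoli, vessels and airways. Ribosomal protein mRNAs belong to a class that begins with a 5′ terminal oligopyrimidine (TOP) tract, through which their translation, and in part their stability, follows nutrient and growth signals.

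The sort marker did not separate the pairs. Pdgfra was at 77.3, 165, 81.9 and 174 scaled FPKM in order of age (the fetal pair first, then P7 and P28), so the pairs overlapped. All 12 general fibroblast genes were measured and none met the rule in either direction. Of all measured genes 3.06% did, so 0 of 12 is near that share. By any amount, 4 of the 12 were higher in both postnatal libraries, 1 was lower and 7 overlapped. Their median difference was 0.63 on the log2 scale, against 0.04 over all measured genes. Col1a1 and Col3a1, chains of the fibrillar collagens, were at 237, 261, 303 and 515 and at 332, 322, 543 and 958 in order of age, higher in both postnatal libraries, with less than 2-fold between the nearest fetal and postnatal libraries. In scale, E18.5 differed from the other libraries, with a factor of 0.581 against 1.08 to 1.38, and the split of calls moved with scaling. FPKM as deposited gave 441 postnatal and 56 fetal calls with the median of all genes shifted by 0.46 on the log2 scale. Upper-quartile scaling gave 202 and 173 (shift -0.05), and median-ratio scaling over genes at 10 FPKM or more gave 313 and 102 (shift 0.21), against a shift of 0.04 with the scaling used here. Xist was at 0.0103, 0.0271, 63.4 and 0.0495 and the Y-linked Ddx3y at 5.24, 8.52, 0 and 5.65 in order of age. P7 alone thus carried Xist and lacked Ddx3y, a split that runs across the pairs and not along them. The number of reads behind a value cannot be had from FPKM, and the depth per library is unknown.

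**Figure D1:**
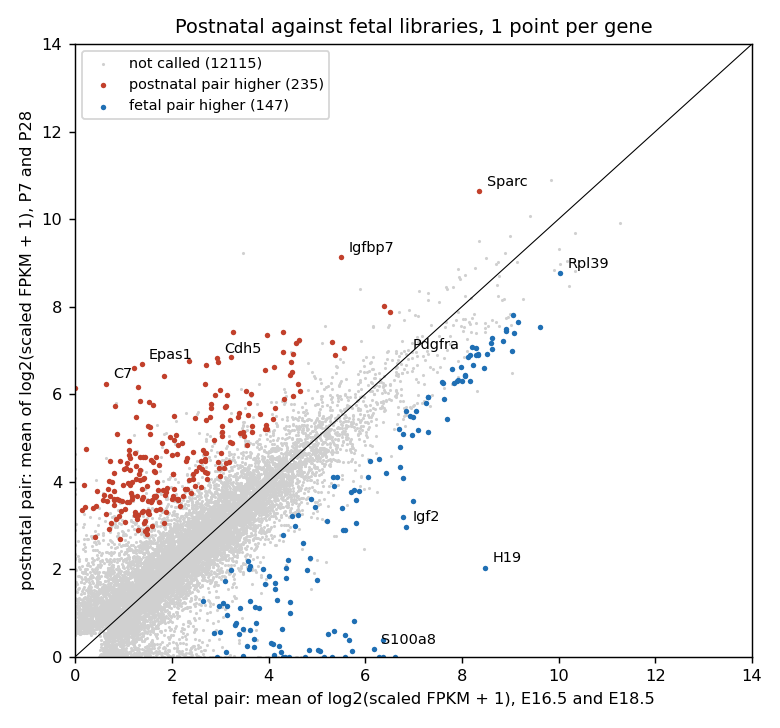
Mean log2(scaled FPKM + 1) of the fetal pair (horizontal axis) against that of the postnatal pair (vertical axis), 1 point per gene, with the 235 genes higher in both postnatal libraries in red, the 147 higher in both fetal libraries in blue and all others in grey. H19 and Igf2 lie far below the diagonal, Epas1 and C7 far above it, and Pdgfra lies next to it.

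Genes of imprinted fetal growth stood on the fetal side. Of 36 imprinted growth genes listed, 35 were in the table and 28 were measured. The fetal pair was higher by the rule for 8 of the 28 (28.6%, against 1.18% of all measured genes) and the postnatal pair for 0, and the median difference of the list was -0.83 on the log2 scale against 0.04 over all measured genes. H19, the long noncoding RNA beside Igf2 (GRCm38 chromosome 7, 142575529 to 142578143, minus strand), was at 269.6, 468, 13.6 and 0.146 in order of age. Both fetal levels were above both postnatal ones, and P28 was far below P7. Igf2, the growth factor itself (chromosome 7, 142650766 to 142666816, minus strand), was at 87, 147, 11.7 and 3.86. Its pairs were apart by at least 6.95-fold on the log2(value + 1) scale, and those of H19 by 18.6-fold. With sorted bulk samples, fewer cells with a transcript and less RNA per cell cannot be told apart, here and below.

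Meg3 and Rian, noncoding RNAs of the imprinted Dlk1 to Dio3 region, both lie on chromosome 12 (109541001 to 109571726 and 109603940 to 109661716, plus strand). Meg3 was at 11.7, 24.6, 1.4 and 1.51 and Rian at 12.6, 21.6, 2.09 and 1.75 in order of age. Each was several-fold lower in both postnatal libraries, with P7 and P28 close to each other. Dlk1, the inhibitory Notch ligand from the same region, was at 4.33, 4.07, 0.199 and 0.0218 and stayed under the level of 5 that the rule asks for. The other 4 imprinted genes of the fetal side were Plagl1, Nnat, Cdkn1c and Igf2r, of which Plagl1, Nnat and Igf2r were chosen after their values were seen. Plagl1, a zinc finger factor of fetal growth, was at 87.6, 134, 28.1 and 1.9, and Nnat, the small membrane protein neuronatin, at 92.1, 129, 26.3 and 9.41. Both were lowest at P28. Cdkn1c, the cell cycle inhibitor p57, was at 53.5, 48.8, 15.9 and 9.97 and Igf2r, the receptor that clears IGF2, at 40.1, 38.6, 17.7 and 14.8. Their gaps were smaller, at 2.94-fold and 2.12-fold, and Igf2r overlaps the antisense RNA Airn, whose reads the library kit does not separate by strand.

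Imprinted genes did not all stand on that side. Of the 28, 19 were lower in both postnatal libraries by any amount, 2 were higher and 7 overlapped. Of all measured genes, 20.4% were lower and 23% higher in this way. Gnas, the most abundant of them and the alpha subunit of the stimulatory G protein, was at 578, 391, 614 and 579.9 in order of age. Mest was at 59.4, 56.8, 69.9 and 2.2, so P28 alone was low. Peg13, an imprinted noncoding RNA on chromosome 15 (72805600 to 72810324, minus strand) that is not on the list and was chosen after its values were seen, was at 1.53, 2.16, 7.89 and 10.5 and met the rule on the postnatal side. It is annotated within an intron of another gene on the same strand, so its reads cannot be told from unspliced RNA of that gene. With FPKM as deposited the list had 5 fetal calls and 1 postnatal call, with upper-quartile scaling 8 and 0, and with the scaling over abundant genes 7 and 0.

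**Figure D2:**
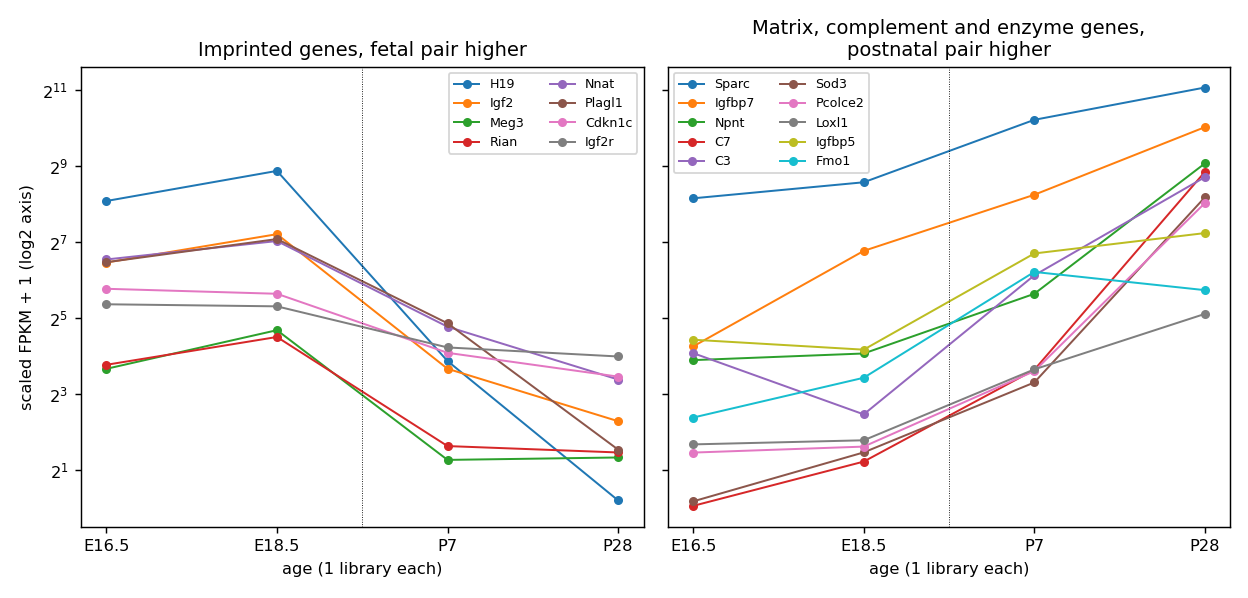
Scaled FPKM + 1 on a log2 axis by age, with 1 library per age and a dotted line between the pairs. On the left are the 8 imprinted genes higher in both fetal libraries, with H19 and Plagl1 steepest between P7 and P28. On the right are 10 matrix, complement and enzyme genes higher in both postnatal libraries, of which C7, Sod3, Pcolce2 and Npnt stand far higher at P28 than at P7.

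Growth and morphogen genes outside the imprinted list also met the rule on the fetal side. Igf1, insulin-like growth factor 1, was at 114, 152, 49.4 and 46.8 in order of age, and Igf2bp3, an RNA-binding protein of fetal tissues named for its binding of Igf2 mRNA, at 12.6, 7.21, 1.69 and 0.745. The postnatal levels of Igf1 were alike, whereas Igf2bp3 was lower at each later age. Hhip, the membrane protein that binds and limits hedgehog ligands, was at 24.2, 90.3, 5.87 and 7.06, the one called gene of 15 measured hedgehog pathway genes (6.67%). Slc2a1, the glucose transporter GLUT1, was at 19.8, 39.3, 2.07 and 6.55 and was the only one of 29 glycolysis and hypoxia genes to meet the rule (3.45%). The fetal side held 1.18% of all measured genes. Epha3, an ephrin receptor, was at 15.7, 39.9, 3.93 and 6.37. In all 3 of these genes E18.5 was the highest library. As deposited, Igf1 and Igf2bp3 no longer met the rule.

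A further group of fetal-side genes stood on no list and was chosen after the values were seen. Ednrb, the B receptor for endothelins, was at 106, 148, 17.6 and 6.43 in order of age and Ptn, the heparin-binding growth factor pleiotrophin, at 25.6, 37.2, 3.47 and 1.52. Agtr2, the type 2 angiotensin receptor, was at 7.25, 12.4, 0.846 and 0.109. These genes were lowest at P28 and highest at E18.5, with fetal and postnatal levels apart by at least 5.77-fold, 5.96-fold and 4.47-fold. Hes1, a repressor induced by Notch signalling, was at 67.9, 108, 24.2 and 12.3, Pth1r, the parathyroid hormone receptor, at 7.83, 6.76, 2.26 and 0.679 and Capn6, a calpain relative without protease activity, at 49.7, 41.7, 13.3 and 2.89. The last 2 were lower at each later age.

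Cytosolic ribosomal proteins made up 43 of the 147 genes of the fetal side. Of 81 measured, 43 met the rule (53.1%, against 1.18% of all measured genes). By any amount, 78 were lower in both postnatal libraries and 0 were higher in both, against 20.4% and 23% of all measured genes. Rps26, a small subunit protein, was at 272, 300.1, 92.1 and 66.6 in order of age, and Rpsa, the laminin receptor protein of the small subunit, at 119.95, 205, 40.5 and 29.2. Rpl39, the most abundant that met the rule, was at 949, 1144, 457 and 409. Each was 2-fold to 3-fold lower across the gap, and levels within a pair lay within 2-fold of each other. Rpl10, the most abundant of the list, was at 1362, 1246, 790.1 and 848 and lay short of 2-fold. The median difference of the list between the means of the pairs was -1.37 on the log2 scale, against 0.04 over all measured genes. Its share of all summed FPKM was 13.6% and 14.5% in the fetal libraries, 6.88% at P7 and 4.57% at P28.

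How many ribosomal proteins met the rule depended on the scaling, while their direction did not. The count was 2 as deposited, 22 with scaling over abundant genes and 52 with upper-quartile scaling, and 52, 76 and 79 of the 81 were lower in both postnatal libraries by any amount. Their sum can also be set against a pair of mitochondrial groups without any scale between libraries. The ratio of the ribosomal sum to that of 149 mitochondrial ribosomal and oxidative phosphorylation genes was 5.37 and 7.67 in the fetal libraries and 3.52 and 3.18 in the postnatal ones, in order of age, so the pairs did not overlap. None of 74 mitochondrial ribosomal proteins, 75 nuclear oxidative phosphorylation subunits and 37 proteasome subunits met the rule. Of all measured genes, 3.06% met it in either direction. The median differences of these groups were -0.12, -0.47 and -0.07. Lower in both postnatal libraries by any amount were 25 of the 74, 42 of the 75 and 9 of the 37, against 2553 of all 12497 measured genes (20.4%). Most oxidative phosphorylation subunits thus shared the direction of the ribosomal proteins, with a smaller median difference. Those 3 comparison groups were chosen after the values were seen. Ribosomal protein genes have many processed copies in the genome, so the share of reads counted for each is uncertain.

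**Figure D3:**
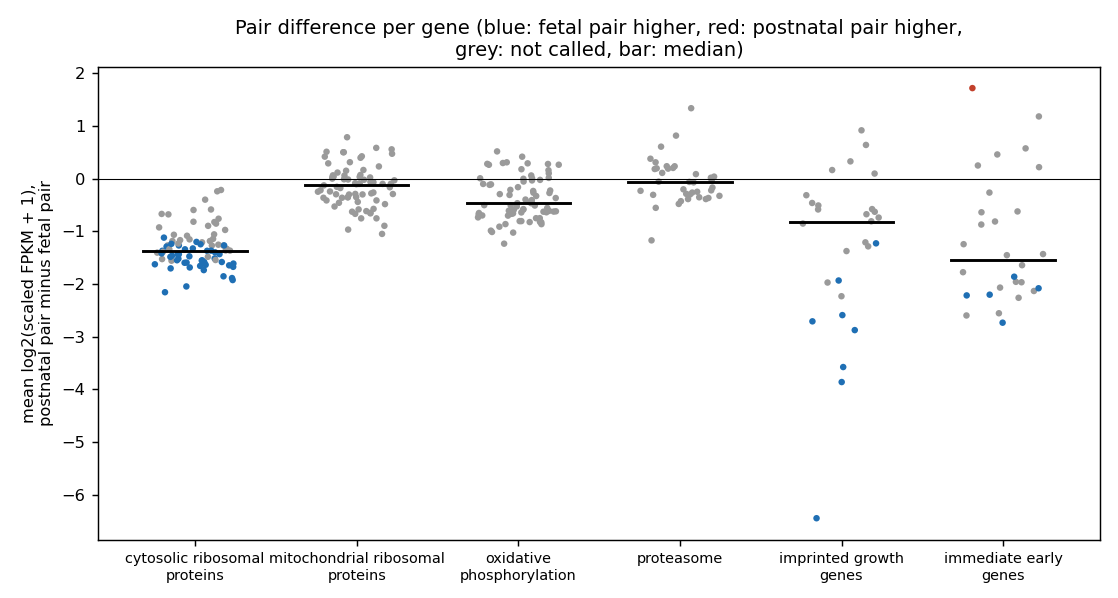
Difference between the mean of the postnatal pair and the mean of the fetal pair on log2(scaled FPKM + 1), 1 point per measured gene, for 6 groups of genes; a black bar marks the median of each group, blue points met the rule on the fetal side and red on the postnatal side. The cytosolic ribosomal proteins lie around -1.37, and the mitochondrial ribosomal, oxidative phosphorylation and proteasome groups lie nearer 0 with no coloured point.

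Other mRNAs of the TOP class shared the direction. A list of 18 TOP genes known from other work, outside the ribosomal protein list, was written after the values were seen. Of these, 5 met the rule (27.8%, against 1.18% of all measured genes), with a median difference of -0.91. By any amount, 13 were lower in both postnatal libraries, against 20.4% of all measured genes, and 1 was higher. Gnb2l1 and Fau, among the 5, also encode parts of the ribosome, so the list is not fully separate from the ribosomal proteins. Eef1b2, an exchange factor of translation elongation, was at 54.4, 79.1, 16.5 and 16.1 in order of age and Gnb2l1, the ribosomal scaffold RACK1, at 110.3, 132, 45.1 and 44. Both stood lower after birth, with P7 and P28 nearly alike. Npm1, the nucleolar protein nucleophosmin, was at 835, 728, 289 and 118, and Fau, a ubiquitin-like fusion with ribosomal protein S30, at 87.5, 208, 30.3 and 40.7. Naca, a subunit of the nascent polypeptide-associated complex, was the fifth, at 108, 118, 53 and 43.9. Eef1a1, the elongation factor that carries aminoacyl-tRNA, was at 946, 1791, 536 and 374 and fell short of the rule. As deposited, only 1 of the 18 met it, and Eef1b2, Gnb2l1 and Npm1 did not.

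The tract itself can be read in the RefSeq sequences (GRCm38.p6) of these genes. Each line runs 5′ to 3′ on the gene's strand over 30 bases, 12 before and 18 from the annotated start on. The capitals mark the C and T bases from that start up to the first other base. In each window the base before the start is also C or T, so the full run begins earlier. Shown are 4 ribosomal proteins and 2 other TOP genes that met the rule.
Rps18: gtcacttccgctCTCTCTTCCacaggaggc
Rpl28: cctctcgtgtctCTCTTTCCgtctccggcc
Rps10: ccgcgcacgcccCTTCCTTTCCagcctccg
Rps6: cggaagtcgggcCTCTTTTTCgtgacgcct
Gnb2l1: aggccgctctttCTTTTTCTCCacagggtc
Fau: gcgcccccacttCTTCCTCTTTCTTgactc
Counted from the annotated start, the runs were 9, 8, 10, 9, 10 and 13 bases long in that order. The windows lie on chr17:33955648-33955677 (minus strand), chr7:4792953-4792982 (plus), chr17:27635227-27635256 (minus), chr4:86857350-86857379 (minus), chr11:48800348-48800377 (plus) and chr19:6057935-6057964 (plus).

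At least 5 such bases, counted from a C at an annotated start, were found for 13 of the 60 ribosomal proteins with a RefSeq window (21.7%). The same held for 304 of 9865 measured genes (3.08%) and 0 of 65 mitochondrial ribosomal proteins. A second definition asked that the whole run begin with C within 5 bases of the start, after a base other than C or T. It gave a smaller contrast, with 17 of 60 (28.3%), 1665 of 9865 (16.9%) and 11 of 65 (16.9%). Both definitions were chosen after the values were seen. An annotated start that is off by a few bases can hide a tract under the first definition, which is used below. Of the ribosomal proteins that met the rule 6 of 32 had the tract (18.8%), and of those that did not, 7 of 28 (25%). Outside the ribosomal protein list, which does not hold Gnb2l1 and Fau, 291 genes had it, with a median difference of -0.04 against 0.04 in 9514 genes without. Calls in both directions were more frequent with the tract, at 1.72% against 0.725% for fetal calls (5 genes with the tract) and 3.09% against 1.64% for postnatal calls (9 genes with the tract).

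Ribosomal protein transcripts are short, with a median length of 632 bases, and length moved with the direction to a lesser degree in other genes. The median transcript length was 1794 bases for the postnatal side, 756 for the fetal side, 1068 for the fetal side without ribosomal proteins and 1425 for all measured genes. Among 812 other genes of 200 to 600 bases the median difference was -0.10, and 21 met the rule on the fetal side (2.59%). For the 130 of these at a mean of 20 scaled FPKM or more the median was -0.36, against -1.37 for the 77 ribosomal proteins at that level. The part of length in the ribosomal result was not tested.

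Very short RNAs were listed on both sides and their FPKM is the least certain in the table. The fetal side held 8 small RNAs and the postnatal side 1. Snora52, a small nucleolar RNA of 137 bases inside Rplp2, was at 44.8, 146, 0 and 0 in order of age, and Snora7a, inside Rpl32, at 42.5, 51.5, 0 and 0. Both were listed at 0 in both postnatal libraries, and a value of exactly 0 in this table may be a failed estimate. Snora70, inside Rpl10, was the reverse, at 0, 0, 76.8 and 63.9, and had the largest gap of the postnatal side. All 3 were chosen after their values were seen, and reads of such an RNA cannot be told from unspliced RNA of its host.

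Immediate early genes, which stress, growth factors and tissue dissociation switch on within minutes, stood mostly on the fetal side. Of 28 measured, 5 met the rule there (17.9%, against 1.18% of all measured genes) and 1 on the postnatal side (3.57%, against 1.88%). By any amount, 19 of the 28 were lower in both postnatal libraries, against 20.4% of all measured genes. The median difference of the list was -1.55. Egr1, a zinc finger factor, was at 334, 362, 78.8 and 115 in order of age, Nr4a1, an orphan nuclear receptor, at 52.4, 63.8, 16 and 10.4, and Ier3, a survival protein, at 41.2, 73.6, 11.7 and 10.5. In each of them both postnatal levels were under both fetal levels. With FPKM as deposited, Egr1 and Nr4a1 no longer met the rule and 4 of the 28 met it on the fetal side, against 7 with upper-quartile scaling. Atf3 and Nr4a2, chosen after their values were seen, were at 37.5, 79.8, 3.53 and 14.5 and 10.8, 37.4, 4.5 and 2.89. Klf4, a Krüppel-like factor, went the other way, at 13.2, 13.3, 55.2 and 38.1. Fos, Jun and Dusp1 did not separate the pairs, at 137, 78.7, 28.9 and 109 for Fos, 61.9, 130.02, 59.2 and 93.7 for Jun and 131, 257, 158 and 471 for Dusp1. Handling of the tissue is not given per library, and its part in these values was not tested.

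Matrix genes stood on both sides. Of 24 elastic fibre genes, 2 met the rule on the fetal side and 2 on the postnatal side (8.33% each). The shares of all measured genes were 1.18% and 1.88%. Fbn2, the fibrillin of fetal microfibrils, was at 28.3, 25.4, 10.2 and 0.404 in order of age and Lox, the lysyl oxidase that crosslinks elastin and collagen, at 81.7, 134, 11.4 and 32. Fbn2 was nearly gone at P28, whereas Lox was lowest at P7. Loxl1, a lysyl oxidase needed for elastic fibre renewal, was at 2.19, 2.43, 11.5 and 33.5, and Fbln5, which brings that enzyme to elastin, at 1.73, 3.01, 11.9 and 9.48. These 2 stood under 4 in both fetal libraries and above 9 in both postnatal ones. Thbs1, the matricellular thrombospondin 1, was at 148, 288, 50.0 and 35.2 and Frem1, a basement membrane protein of fetal epithelium, at 21, 25.9, 8.58 and 8.22. Both were on the fetal side, and as deposited Frem1 and Fbn2 did not meet the rule.

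The 3 genes of the postnatal side with the highest value in any 1 library were secreted. Sparc, the collagen-binding glycoprotein osteonectin (GRCm38 chromosome 11, 55394500 to 55423183, minus strand), was at 283, 379.9, 1189.8 and 2146 in order of age. Igfbp7, a low-affinity IGF-binding protein that is also made by vessels, was at 18, 108, 302 and 1041, and Npnt, the basement membrane ligand of integrin alpha 8, at 13.8, 15.7, 48.7 and 536. Sparc and Igfbp7 were higher at each successive age, and Npnt was by far the highest at P28, while P7 still stood above both fetal levels. Igfbp5, which binds IGFs in the matrix, was at 20.5, 16.9, 103 and 149.7. Among the 14 measured IGF genes, Igfbp5 and Igfbp7 were thus on the postnatal side (14.3%) and Igf1 on the fetal side (7.14%). The shares of all measured genes were 1.88% and 1.18%.

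Other matrix genes met the rule at lower levels. Ecm2 and Podn, leucine-rich matrix proteins, were at 0.834, 2.48, 7.46 and 31.3 for Ecm2 and 1.34, 7.24, 16.4 and 46.6 for Podn in order of age. They were 2 of 11 measured small leucine-rich proteoglycans (18.2%, against 1.88% of all measured genes). Thbs3, a thrombospondin, was at 1.49, 1.39, 7.15 and 8.56. Pcolce2, an enhancer of procollagen cleavage, was at 1.74, 2.06, 11.1 and 259.5, so P28 exceeded P7 many times over. Timp2, an inhibitor of metalloproteinases, was at 30.1, 49.4, 101 and 209.6 and lay just inside the threshold with a gap of 1.01. None of 25 collagen chains and none of 18 smooth muscle contractile genes met the rule in either direction. Of all measured genes 3.06% did, so 0 calls in lists of this size is near that share. By any amount, 4 collagen chains were higher in both postnatal libraries and 6 were lower. For the smooth muscle genes these counts were 0 and 3.

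Adventitial fibroblast genes, known from fibroblasts around vessels and large airways, stood on the postnatal side. Of 22 measured, 6 met the rule (1.88% of all measured genes did) and 0 on the fetal side, with a median difference of 1.58. Dpt, the collagen-binding protein dermatopontin, was at 11.1, 44.8, 93 and 220.3 in order of age and Dpp4, a surface peptidase, at 1.2, 0.463, 6.27 and 9.79. Ly6a, the surface protein Sca-1, was at 0.657, 2.25, 62.1 and 149.8 and had the largest gap of the named postnatal genes. Ly6a and Cd34 are also on the wider endothelial list described below. Alveolar fibroblast genes had 2 of 23 on the postnatal side (8.7%), Npnt and Scn7a, and a median difference of 1.49, which came to -0.032 relative to all genes once the P28 library was left out. Scn7a, a sodium-sensing channel protein, was at 3.38, 19.2, 173 and 75, highest at P7.

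Some complement and class I histocompatibility genes met the rule on the postnatal side. C7, a part of the complement membrane attack complex (chromosome 15, 4988762 to 5063740, minus strand), was at 0.0371, 1.33, 11.4 and 459 in order of age, and C3, the central complement protein, at 15.9, 4.51, 68.7 and 417. P28 was by far the highest library for both, and C3 was lower at E18.5 than at E16.5. P28 was also the library with summed alveolar type 2 and airway epithelial marker levels of 12762 and 18549, and the part of those cells in these values was not tested. C1s, a protease that starts the classical pathway and was chosen after its values were seen, was at 0.539, 2.07, 8.97 and 90.9. C1qb and C1qc, the macrophage subunits of the same complex, stood on the fetal side at 47, 5.16, 0 and 0 and 26.7, 9.89, 0 and 0.0748. Of 23 measured complement genes, 3 were thus on the postnatal side (13%) and 2 on the fetal side (8.7%). The shares of all measured genes were 1.88% and 1.18%. H2-K1 and H2-D1, the classical class I histocompatibility chains, were at 15.1, 3.8, 32.9 and 117 for H2-K1 and 15.1, 3.68, 35 and 76.6 for H2-D1, lowest at E18.5 in both. These 2 genes are near-identical in sequence, so their split is uncertain, and B2m, the light chain, was at 255, 225, 363 and 586 and short of 2-fold.

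Some enzymes and transporters met the rule on the postnatal side. Sod3, the extracellular superoxide dismutase, was at 0.126, 1.75, 8.86 and 288 in order of age, Fmo1, a flavin monooxygenase, at 4.2, 9.75, 73.2 and 52.2, and Cyp4b1, a cytochrome P450 of the lung, at 0.0958, 0.26, 23.3 and 28.8. Fetal levels of Cyp4b1 were under 1, and both postnatal levels were above 20. Ephx1, the microsomal epoxide hydrolase, was at 0.203, 0.865, 5.59 and 21 and Aldh1a2, which makes retinoic acid, at 2.0, 3.46, 13.9 and 44.2. Both were higher at each successive age. Aldh1a2 is also known from mesothelium, which is described below. Of 56 measured xenobiotic enzymes 3 met the rule on the postnatal side (5.36%, against 1.88% of all measured genes) and 0 on the fetal side (against 1.18%). Slco3a1, an organic anion carrier, was at 1.32, 1.69, 15.7 and 18.7 and Slc43a3, a purine base carrier, at 16.6, 15.9, 69.8 and 136, 2 of the 6 solute carriers of the postnatal side among 200 measured (3%, against 1.88% of all measured genes).

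Some signalling and cell cycle genes also met the rule on the postnatal side. Of 24 G1 cyclins, CDKs and CDK inhibitors 2 did (8.33%), 1 met it on the fetal side, and the median difference was -0.23. Postnatal calls were 4 of 42 TGF-beta and BMP (9.52%), 1 of 21 FGF (4.76%) and 3 of 56 guidance genes (5.36%). Mesenchymal transcription factors had 3 of 55 (5.45%). The share of all measured genes was 1.88%, and guidance genes also had 1 fetal call. Several of these postnatal calls are also on the wider endothelial list described below. They are Smad6, Acvrl1 and Bmp6 of the TGF-beta and BMP genes, Nrp1 of the guidance genes and Gata2 of the transcription factors. The part of endothelial cells in these shares was not tested. Tgfb3, a TGF-beta ligand, was at 7.82, 8.38, 24.3 and 18.1 in order of age and Fgf1, a fibroblast growth factor made without a secretion signal, at 0.349, 1.46, 5.83 and 20.7. Ntn1, the guidance protein netrin 1, was at 0.57, 0.538, 8.9 and 8.38, under 1 in both fetal libraries and near 8 to 9 in both postnatal ones. Ccnd1, the G1 cyclin D1, was at 5.4, 5.06, 37.7 and 17.2, and Cdkn2c, the CDK inhibitor p18, at 5.1, 3.83, 19.2 and 12.7. Both were highest at P7. Foxo1, a transcription factor held in check by insulin signalling, was at 4.83, 6.42, 14.6 and 20.6. None of 30 mitosis genes and none of 36 DNA replication genes met the rule, which is near the 3.06% of all measured genes. By any amount, all 30 mitosis genes overlapped between the pairs. Of the replication genes, 33 overlapped and 3 were lower in both postnatal libraries. Mki67, a marker of dividing cells, was at 69, 21.1, 39 and 5.18, high at E16.5 and P7 and low at E18.5 and P28. With upper-quartile scaling, Tgfb3, Foxo1, Podn, Timp2, Smad6, Acvrl1 and Bmp6 no longer met the rule, and 0 of the 42 TGF-beta and BMP pathway genes did.

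**Figure D4:**
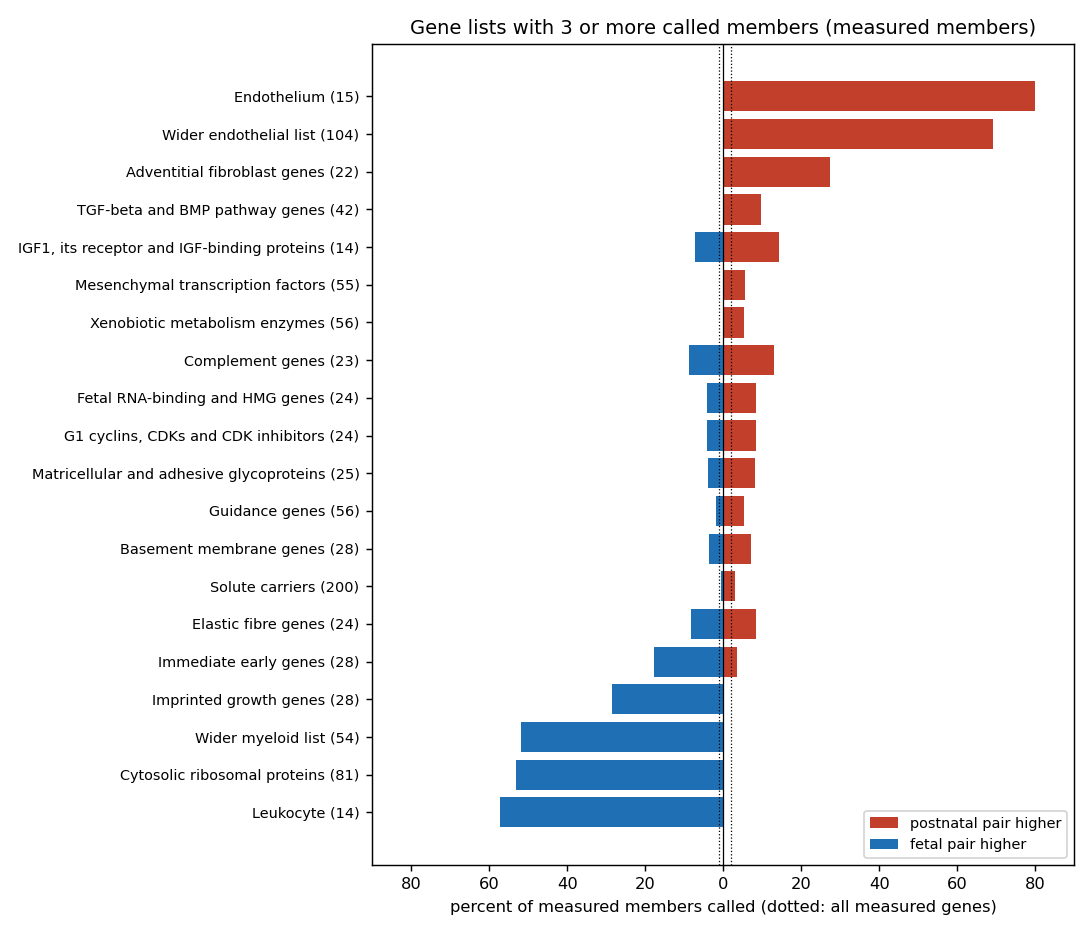
Percent of the measured members of each gene list that met the rule, to the right in red where the postnatal pair was higher and to the left in blue where the fetal pair was higher, for lists with 3 or more such members; numbers in brackets are measured members and the dotted lines mark 1.88% and 1.18% over all measured genes. The endothelial lists reach farthest right, and the leukocyte, wider myeloid and ribosomal protein lists farthest left.

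Markers of other cell types moved with the pairs and are part of both gene sets. Of 15 endothelial markers, 12 met the rule on the postnatal side (80%), with a median difference of 2.59, and of 104 genes on a wider endothelial list, written after the values were seen, 72 did (69.2%). Of all measured genes, 1.88% did. The summed level of the 15 was 44.8 and 95.3 in the fetal libraries, 960 at P7 and 308 at P28. None of the defining markers was at 0 in the fetal libraries. Cdh5, the cadherin of vascular endothelium, was at 4.36, 9.97, 200.1 and 62.4 in order of age, Kdr, the main VEGF receptor, at 1.14, 3.0, 49.9 and 21.9, and Calcrl, a receptor for adrenomedullin, at 4.59, 9.7, 198 and 57. P7 was the highest library for each of them, and P28 still exceeded both fetal ones. Their part in the postnatal result was not tested. Without all genes on cell type lists, the wider ones included, 158 of the 235 postnatal genes and 117 of the 147 fetal genes were left.

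Many of the largest gaps on the postnatal side were genes of that wider endothelial list. Epas1, the hypoxia-inducible factor HIF-2 alpha, was at 0.619, 3.17, 131 and 78.8 in order of age, and Cd36, a fatty acid receptor, at 1.57, 3.94, 75.5 and 94. Tmem100, a BMP-regulated membrane protein, was at 3.47, 0.342, 87.3 and 58.1, and Car4, a carbonic anhydrase of lung capillaries, at 0.032, 0.259, 16.4 and 12.4. In all 4 the fetal libraries were under 4. Hpgd, which breaks down prostaglandins, was at 6.19, 2.65, 177 and 65.8, Gpr116, an adhesion receptor, at 0.555, 3.11, 63.7 and 49.9, and Thbd, the anticoagulant receptor thrombomodulin, at 29.5, 11.6, 142 and 205. Thbd was higher at P28 than at P7, the reverse of Hpgd and Gpr116. Acvrl1, Smad6 and Bmp6 of the BMP pathway and Gata2, Fzd4, Sgk1 and Nrp1 are on this list too, and fibroblasts can also express several of these genes. Lymphatic endothelium had 2 of 4 markers on the postnatal side (50%, against 1.88% of all measured genes), Flt4 at 0.438, 1.68, 16.3 and 6.97 and Lyve1 at 6.27, 9.01, 106 and 24.6.

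Mesothelial markers, from the cells that cover the lung, had 2 of 9 on the postnatal side (22.2%, against 1.88% of all measured genes). Upk3b was at 0.0701, 2.4, 10.8 and 40.8 in order of age and Msln at 0.0226, 4.42, 15.9 and 36, higher at each successive age. The sum of the 9 was 4.05, 26.1, 44.2 and 182. Epithelial transcripts stood out at P28 alone. Of the alveolar type 2 and airway markers, 0 of 16 and 0 of 11 met the rule, where 3.06% of all measured genes did. Their sums at P28 were 12762 and 18549, against at most 252 and 61.7 in the other libraries. Of 10 alveolar type 1 markers, Clic5 met the rule (10%), at 0.195, 3.77, 23.2 and 16.6. Pericyte markers had 0 of 12, and with so few genes 0 calls cannot be told from the share of all measured genes. The part of these cells in the postnatal result was not tested.

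Myeloid and erythroid transcripts were on the fetal side. Of 14 leukocyte markers, 8 met the rule there (57.1%), with a median difference of -3.13, and of 54 genes on a wider myeloid list, written after the values were seen, 28 did (51.9%). Of all measured genes, 1.18% did. S100a8, a calcium-binding protein of neutrophils, was at 179, 28.1, 0.26 and 0 in order of age, Il1b, the cytokine interleukin 1 beta, at 44.8, 17, 0.129 and 0.109, and Tyrobp, a signalling adaptor of myeloid cells, at 68.7, 19, 0.35 and 0.514. E16.5 was the highest library for these 3, and both postnatal libraries were under 1. Pf4, a chemokine of platelets and some macrophages, was at 18.6, 18.2, 0.799 and 0.34, alike at both fetal ages. The summed leukocyte level was 1657, 193, 15.2 and 4698 in order of age, where the P28 sum came from Lyz2 at 833, 69.8, 10.9 and 4692, a lysozyme that alveolar type 2 cells also make. Cxcl2 and Ccl2, chemokines made by both stromal and myeloid cells, were at 22.8, 15.4, 0 and 0 and 9.88, 10.4, 0.583 and 0.524. Of 10 erythroid genes, the embryonic globins Hba-x and Hbb-y met the rule (20%), at 41.3, 141, 0 and 0 for Hba-x and 12.2, 79.7, 0.243 and 0 for Hbb-y, highest at E18.5. Members of the Stfa and globin families are near copies, so the split of reads among them is uncertain.

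Within the higher pair the genes fell into different orders. On the postnatal side, 57 of the 235 were at least 2-fold higher at P7 than at P28, 33 were at least 2-fold higher at P28, and 145 lay within 2-fold. Of the 57, 40 are on the wider endothelial list, and of the 33, 2 are (Ly6a and Ly6c1). The other P28-high genes include C7, C3, C1s, Npnt, Pcolce2, Sod3, Loxl1, Igfbp7 and Dpt. Levels were higher at each successive age for 64 of the 235. On the fetal side, 21 of the 147 were at least 2-fold higher at E16.5 than at E18.5, of which 20 are on a myeloid list. A further 16 were at least 2-fold higher at E18.5, among them Meg3, Hhip, Atf3 and both embryonic globins, and 110 lay within 2-fold. Levels were lower at each successive age for 34, among them Igf2bp3, Cdkn1c, Igf2r, Fbn2 and Npm1.

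**Figure D5:**
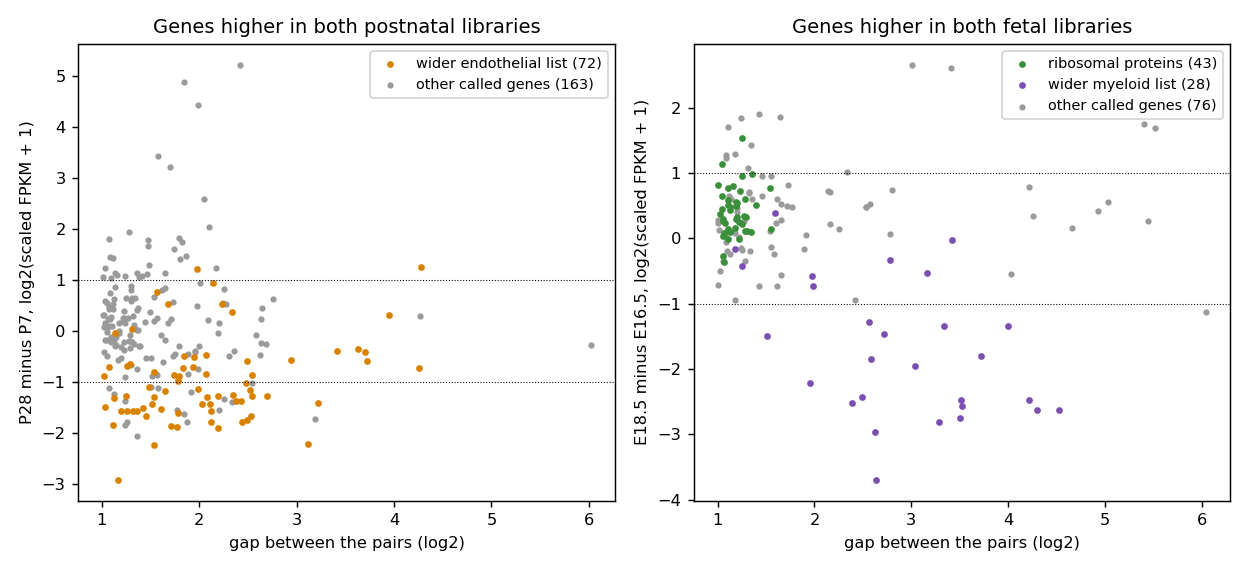
Gap between the pairs in log2 units (horizontal axis) against the difference within the higher pair in log2 units (vertical axis), 1 point per gene, for the postnatal side on the left and the fetal side on the right; dotted lines mark 2-fold. Wider endothelial genes lie mostly below 0 (higher at P7) and myeloid genes below 0 (higher at E16.5), while ribosomal proteins lie at gaps near 1 with a small difference between E16.5 and E18.5.

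Gap sizes differed little between the sides. The median gap was 1.53 on the log2 scale, or 2.90-fold, for the postnatal side and 1.35, or 2.55-fold, for the fetal side. It was 4-fold or more for 61 and 44 genes. Both libraries of the lower pair were under 1 scaled FPKM for 20 postnatal and 36 fetal genes, and listed at 0 for 1 and 11. Just inside the threshold on the postnatal side were Bmp6, Rcan1 and Timp2 with gaps of 1.02, 1.02 and 1.01, and just outside Plec, Lgals9 and Ehd1 with 0.99, 0.97 and 0.97. On the fetal side Btg1, Rpl38 and Sms were just inside, at -1.01, -1.01 and -1.003, and Rpl36a, Rpl35 and Smarca1 just outside, at -0.996, -0.99 and -0.99. Without any 2-fold demand or minimum, 2873 measured genes (23%) were higher in both postnatal and 2553 (20.4%) in both fetal libraries.

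The promoters of the called genes were read for a TATA box, the site where the TATA-binding protein docks on a minority of promoters. In RefSeq windows of 300 bases, 250 before and 50 from the annotated start on, TATAAA on the gene's strand beginning 36 to 24 bases before a start was found for 8 of 74 fetal-side genes other than ribosomal proteins (10.8%), for 0 of 32 ribosomal proteins of that side and for 6 of 165 postnatal-side genes (3.64%). The share was 1.53% of 9865 measured genes and 1.80% of all 32851 windows in the table, and a gene with several windows was counted once. Anywhere in the window and on either strand, TATAAA was in 21.6%, 9.38%, 17.6%, 9.44% and 13.6% of these sets. For CG pairs, each gene was given the count of its window with the most. The median of these counts was 14.5 for the 74 fetal-side genes, 19 for the postnatal side and 22 for measured genes. Shown are 3 windows of each side over 60 bases, 45 before and 15 from the start on, 5′ to 3′ on the gene's strand with TATAAA in capitals.
Meg3: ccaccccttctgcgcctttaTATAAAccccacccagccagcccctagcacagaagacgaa
S100a8: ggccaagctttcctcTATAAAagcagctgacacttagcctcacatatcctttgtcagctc
Il1b: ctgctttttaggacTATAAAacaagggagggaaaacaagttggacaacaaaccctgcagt
Sgk1: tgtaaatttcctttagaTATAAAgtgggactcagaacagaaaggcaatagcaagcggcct
Flt1: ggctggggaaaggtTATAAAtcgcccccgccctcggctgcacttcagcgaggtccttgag
H2-D1: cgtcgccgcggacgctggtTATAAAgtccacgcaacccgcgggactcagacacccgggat
They lie on chr12:109540951-109541010 (plus strand), chr3:90669026-90669085 (plus), chr2:129371125-129371184 (minus), chr10:21992178-21992237 (plus), chr5:147725997-147726056 (minus) and chr17:35263049-35263108 (plus). Myeloid and globin genes hold several of the fetal-side windows. Flt1, a VEGF receptor on the endothelial list that was chosen after its values were seen, was at 0.68, 1.23, 14.9 and 5.46 in order of age. A match describes letters in a window and is no evidence that a factor binds there.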

How the data were processed

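RNA-seq was deposited as 1 table of FPKM with 1 library per age, and raw counts were not used here. FPKM values are the authors' own, deposited after normalization to transcript length and library. The submitters' processing notes name TopHat, TopHat2 2.0.9, GRCm38 and mm10. Which program made the FPKM is not given in these sources. The smallest positive value has a log10 of -256, as only a model estimate can. Columns marked PN7 and PN28 were taken as the P07 and P28 samples. Of 23931 entries, 745 shared 258 symbols and were summed per symbol. Median-ratio factors over the 7930 symbols that reached 1 FPKM in every library were 1.15, 0.581, 1.38 and 1.08 in order of age. Differences used log2(scaled FPKM + 1), which understates low genes, and 5151 symbols could have met the minimum of 5 in a pair. Nothing was tested, as each age has 1 library.

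The rule, gene lists (56, plus 7 written after the values were seen) and alternatives were chosen with earlier results of these data known. Named genes are Pdgfra, the 15 largest gaps per direction at 10 or more in the higher pair, per list the 4 largest gaps and the most abundant member, the 3 most abundant markers of other cell types, the 3 highest called genes and the 3 genes next to each side of the threshold. Others, such as Col1a1, Dlk1, Mest, Fos, Jun, Mki67, Xist and Ddx3y, were chosen after their values were seen. RefSeq matched 23302 of 23444 symbols and gave sequences on GRCm38.p6. Gene coordinates and lengths are those of GENCODE on GRCm38. On simulated data with little noise, the calling code recovered differences planted in abundant genes well above the 2-fold threshold. That checks the code and does not show how reliable the calls in these libraries are. Python 3.11.15, numpy 2.4.6, pandas 2.3.3 and matplotlib 3.10.9 were used.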

Additional observations from a re-analysis of the deposited data

How the results depend on the processing

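No paired analysis was possible because each age has 1 library, so no replicate block could be fitted. Genes higher in both postnatal libraries numbered 235, and those higher in both fetal libraries 147. They became 441 and 56 with FPKM as deposited, of which 233 and 54 were shared with the counts above. A minimum of 20 gave 80 and 86, a 4-fold threshold 61 and 44, and a 2-fold difference of pair means 546 and 411. A pseudocount of 5 gave 125 postnatal genes, and no minimum gave 225 fetal genes. The cause was not tested for the scalings; the other settings demand more or less by construction. Leaving out 1 library makes the rule easier to meet: postnatal counts ranged from 401 (without E16.5) to 964 (without P7), and fetal counts from 245 (without P28) to 452 (without E16.5), and all 235 and 147 genes were kept in each. The other settings left both counts within 1.5 times. Wider cell type lists left out gave 158 and 117, and a scaling reference without marker and ribosomal protein genes gave 235 and 147; both were chosen after seeing the data.

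Medians of 8 lists, relative to all genes, changed sign when 1 library was left out, and the cause was not tested. Without P7 and without P28 they ranged from -1.88 to 0.43 for alveolar myofibroblast genes, -1.06 to 0.13 for fetal RNA-binding and HMG genes, -0.27 to 1.999 for small leucine-rich proteoglycans, -0.032 to 2.66 for alveolar fibroblast, -0.10 to 1.42 for xenobiotic, -0.77 to 5.43 for alveolar type 2 and -0.32 to 4.81 for airway genes. Mitosis genes ranged from -1.89 without P7 to 0.43 without E16.5, and stood at 0.41 without P28. Alveolar myofibroblast genes stood at 0.00138 without E18.5. Of the named genes that met the rule, none changed direction under any setting run. The rule fixes this in advance for every one of these settings. A library left out or another pseudocount keeps the order of the pairs. The scalings differ by too little to reverse a 2-fold gap. Named genes that did not meet the rule were not checked for a change of direction. Across 9 settings, 69 calls of single genes were lost, 20 of them as deposited and 33 with a pseudocount of 5, and 75 were gained. Depth is unknown, so what it limits cannot be given.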

Other observations

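Genes of the membrane and cytoskeleton that are on no list also met the rule on the postnatal side. Cd151 is among the 15 largest gaps of that side, and the others were chosen after their values were seen. Cd151, a tetraspanin that holds laminin-binding integrins, was at 5.05, 4.18, 36.7 and 50.7 scaled FPKM in order of age, and Cd9, another tetraspanin, at 5.8, 4.5, 15.8 and 28.1. Tspan9 was at 10.2, 9.16, 31.3 and 36, Tspan12 at 1.86, 1.41, 13.4 and 10.1 and Tspan13 at 4.79, 2.15, 56.6 and 18.8. Tspan13 was highest at P7, and Cd9 at P28. Sptbn1, the beta spectrin of non-erythroid cells, was at 68.9, 100.4, 235 and 280.03, and Ehd2, an ATPase at the neck of caveolae, at 36.1, 44.9, 127 and 111. App, the amyloid precursor protein, was at 34.6, 62.4, 128 and 136, and Itm2b, an integral membrane protein that binds it, at 92.9, 87.3, 191 and 289.5. These 4 were abundant at every age and lay 2-fold to 3-fold apart across the gap. Endothelial cells express many of these genes too, and the part of endothelial cells in these values was not tested.

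Other postnatal-side genes were likewise chosen after their values were seen. Cryab, a small heat shock protein, was at 6.59, 13.3, 34.2 and 63.9 and Cygb, the globin cytoglobin of fibroblast-like cells, at 1.06, 4.23, 11.3 and 15, both higher at each successive age. Gja1, the gap junction protein connexin 43, was at 1.82, 2.19, 5.6 and 8.67 and Heyl, a Notch target, at 3.69, 4.51, 12.1 and 19.4, whereas the Notch target Hes1 on the fetal side was at 67.9, 108, 24.2 and 12.3. Lats2, a kinase of the Hippo pathway, was at 15.8, 8.46, 37.9 and 36.8.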
